A study of Homo sapiens with 19 samples.

Results

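The fragile X messenger ribonucleoprotein FMRP, encoded by FMR1, is an RNA-binding protein that represses translation in neurons, and loss of its expression causes fragile X syndrome. Its paralogs FXR1 and FXR2 share its RNA-binding domains and join it in ribonucleoprotein particles. CYFIP1 and CYFIP2 bind FMRP and the cap-binding protein eIF4E, and they are also subunits of the WAVE regulatory complex, which controls actin branching. NUFIP2 is a further FMRP-interacting protein that is found in stress granules, the cytoplasmic bodies of stalled mRNAs and proteins that G3BP1 and G3BP2 nucleate. The mRNAs of these 6 genes were followed through the processed tables of a study of both G3BP proteins in SH-SY5Y neuroblastoma cells. They were chosen by gene name for the biology of their proteins, and they are 6 of the 19942 protein-coding genes in the tables of gene values and 89 of the 256980 transcripts in the table of transcript values.

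SH-SY5Y is a human neuroblastoma line with sympathetic neuron features. The series holds 19 libraries of different kinds. Poly-A RNA-seq, given as TPM (transcript abundance scaled by length and library total), covered cells given a control siRNA (siCtrl), an siRNA against G3BP1 (siG3BP1) or an siRNA against G3BP2 (siG3BP2), the lysate of sodium arsenite (AS)-treated cells (Total) and the stress granule cores (SG) that were isolated from such a lysate with an antibody to G3BP1, with 1 library each. RNA-seq after depletion of ribosomal RNA compared untreated cells with cells given 500 µM AS for 1 h, again with 1 library each. Enhanced crosslinking and immunoprecipitation (eCLIP), which recovers RNA crosslinked by UV light to a protein, used antibodies to G3BP1 and to G3BP2, each before and after AS, and every one of these groups had 2 libraries. The labels attach a dose of 50 mM AS for 1 h to every library outside the rRNA-depleted pair, the untreated and siRNA libraries included, whereas the methods of the study describe the dose of the rRNA-depleted pair for all AS-treated cells. The 4 size-matched input libraries were not analysed here. The labels do not say whether the eCLIP duplicates came from separate cultures, so p-values measure only the spread between these libraries, which may be technical.

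Of 12 markers of sympathetic neuroblastoma, 11 were above 1 TPM in siCtrl, and their summed level ranged from 3334 to 6440 TPM over the 5 poly-A libraries. Of 11 markers of epithelial, endothelial, blood, fibroblast and glial cells, 4 were above 1 TPM in siCtrl, 2 were listed at 0 in all 5 libraries, and their summed level ranged from 26.2 to 58.4 TPM. In eCLIP, the totals of the first duplicates were 22678600 to 26179700 and those of the second 4268660 to 10677900, so the libraries were scaled to a common total before they were compared.

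The genes lie apart in the genome (GRCh38, GENCODE release 44). FMR1 is at chrX:147911919-147951125 on the plus strand, FXR1 at chr3:180868141-180982753 on the plus strand and FXR2 at chr17:7591230-7614897 on the minus strand. CYFIP1 is at chr15:22867052-22981063 on the minus strand, CYFIP2 at chr5:157266079-157395595 on the plus strand and NUFIP2 at chr17:29255839-29294148 on the minus strand. Their representative mRNAs differed mostly in the 3′UTR. FXR2 had the shortest mRNA, 2987 bases with 20.2% in the 3′UTR, and NUFIP2 the longest, 10877 bases with 80.0% in the 3′UTR. FXR1 came next, with 8343 bases and 77.5% in the 3′UTR, followed by CYFIP1 (6826 bases, 43.6%), CYFIP2 (6452 bases, 40.3%) and FMR1 (4441 bases, 51.4%). Genes on the opposite strand overlap FXR1 (3 genes), FXR2 (2), CYFIP1 (1) and CYFIP2 (6), and since strand in the counting is not stated, reads of such partners cannot be told apart. FMR1 is overlapped by 2 noncoding genes on its own strand, whose reads strand would not separate.

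The study described a palindromic motif and a second motif within its eCLIP peaks, and the mRNAs were searched for the letters of the palindrome, CCAGCCTGG or CCAGGCTGG, each the reverse complement of the other, on the mRNA strand. The palindrome occurred once each in the representative mRNAs of CYFIP2 and NUFIP2, and was not found in those of FMR1, FXR1, FXR2 and CYFIP1. Among all 19701 representative mRNAs, 28.1% held it, and the share was 46.6% among mRNAs within 20% of the length of CYFIP2 and 56.8% among those within 20% of the length of NUFIP2. The CYFIP2 site, in the 3′UTR, is shown because it carries the letters described for G3BP-bound RNA, with the match in capitals and the coordinates giving its 9 bases:
CYFIP2-222, chr5:157393435-157393443, plus strand: cccagagacgCCAGCCTGGccagaagggc
Over the whole gene on both strands, introns included, the palindrome was counted 6 times in FMR1, 24 in FXR2, 35 in NUFIP2, 42 in CYFIP2, 80 in FXR1 and 83 in CYFIP1. Per 10 kb of gene that was 1.53 in FMR1 and 10.1 in FXR2, the lowest and highest of the 6, with a median of 4.03 over 19892 genes. A match describes the sequence and is not a bound site.

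The level of each mRNA in the poly-A libraries, which TPM expresses per transcript length, set FXR2 above the others in every library. FXR2 was at 66.5 TPM in siCtrl, 63.1 in siG3BP1, 56.6 in siG3BP2, 50.0 in Total and 175 in SG. FXR1 was at 16.0, 22.3, 21.5, 22 and 50.2 TPM in the same order of libraries. FMR1 was the lowest of the 3 paralogs in each library, with 4.90, 5.59, 4.11, 2.92 and 33.1 TPM. Of the CYFIP pair, CYFIP2 was at 25.6, 25.7, 20.2, 14.4 and 59.3 TPM. CYFIP1 was lower than CYFIP2 in every library, with 9.60, 15.9, 17.5, 7.18 and 22.5 TPM. NUFIP2, at 3.85, 3.36, 3.65 and 2.98 TPM outside the granules, had the lowest level of the 6 in siCtrl, siG3BP1 and siG3BP2, and it was second only to FXR2 in SG, at 82.5 TPM. SG was the highest of the 5 libraries for all 6 mRNAs. With 1 library per condition these orders have no replicate check, and in bulk RNA a change in some of the cells cannot be told apart from a change in all.

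**Figure D1:**
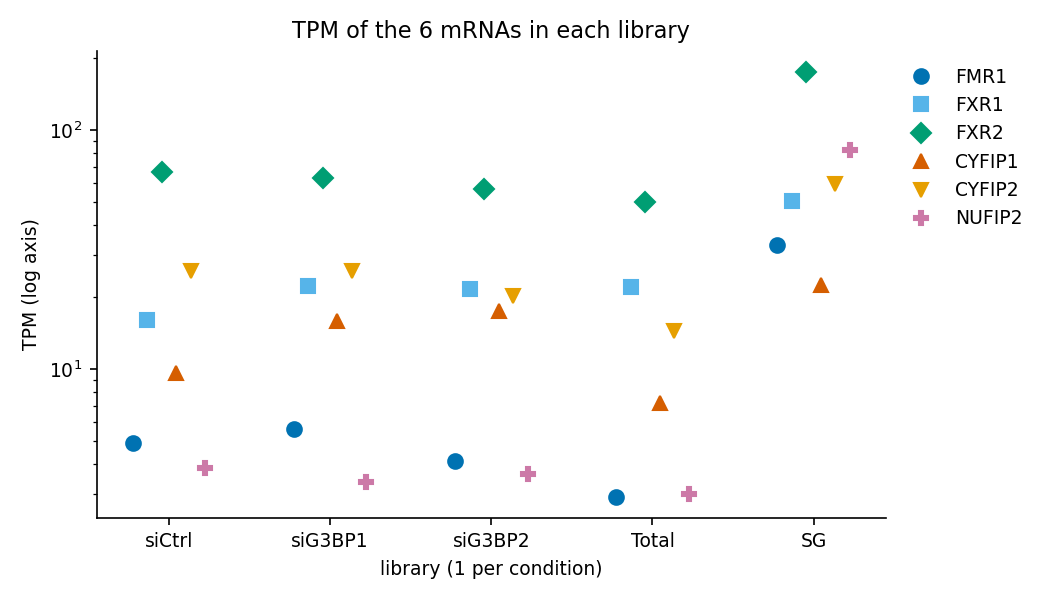
TPM (log axis) of the 6 mRNAs in the 5 poly-A libraries, 1 point per mRNA and library. All 6 mRNAs were highest in the SG library, where NUFIP2 rose to 82.5 TPM from 2.98 TPM in Total.

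The comparison of SG with Total asks which mRNAs the granule cores hold in excess of the lysate. All 6 mRNAs met the rule for SG enrichment, a fold above 2 on TPM + 1 with more than 1 TPM in SG, and 62.9% of 13560 genes met it too, with 9.45% depleted. A count of 6 of 6 therefore has to be read against a library in which most genes were enriched, with a median log2 fold of 1.51. The sizes spread widely among the 6. NUFIP2 had a log2 fold of 4.39, higher than 94.5% of genes, and FMR1 one of 3.12, higher than 81.0%. The other 4 were near the middle of all genes, with CYFIP2 at 1.97 (60.0%), FXR2 at 1.79 (56.2%), CYFIP1 at 1.52 (50.1%) and FXR1 at 1.16 (40.8%). Both G3BP mRNAs were also enriched, G3BP1 at 2.12 and G3BP2 at 2.31.

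**Figure D2:**
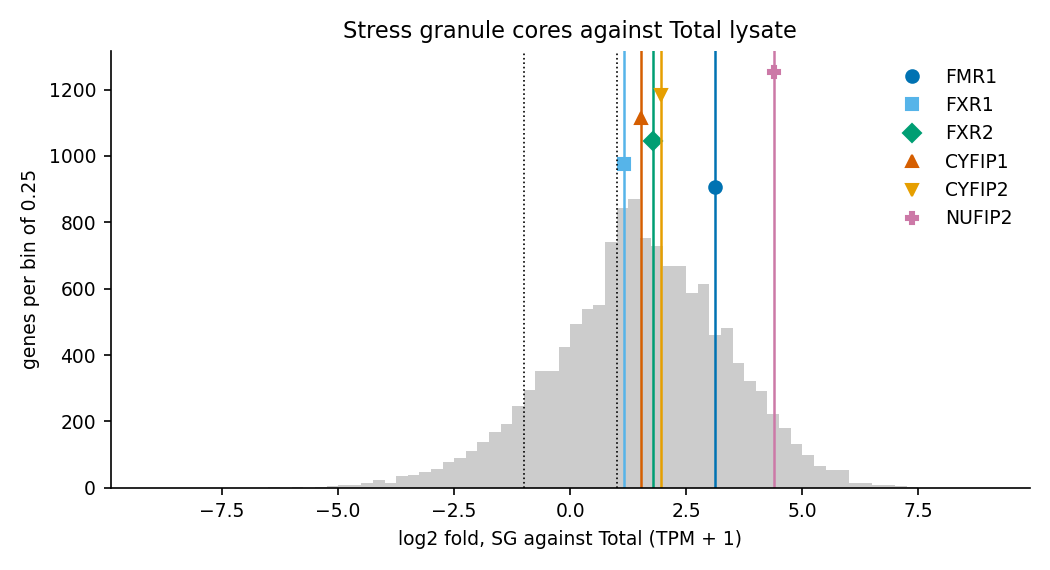
Number of genes (grey bars, bins of 0.25) by log2 fold of TPM + 1 between SG and Total, for genes at 1 TPM or more in either library. Colored lines and symbols mark the 6 mRNAs (the height of a symbol carries no value) and dotted lines the 2-fold limits. FMR1 at 3.12 and NUFIP2 at 4.39 sit to the right of the other 4, which lie between 1.16 and 1.97.

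The SG fold was higher among genes with longer mRNAs, so each mRNA was also set beside genes whose representative mRNA was within 20% of its own length. The genes of the length of FXR1 had a median log2 fold of 3.43, and FXR1, at 1.16, was higher than only 7.08% of them. CYFIP1 and CYFIP2 also fell in the lower part of their length classes, above 14.8% and 23.7% of genes whose medians were 3.08 and 2.95. FMR1 remained in the upper part, above 79.0% of genes with a median of 2.20. NUFIP2 was above 67.4% of genes with a median of 3.74, and FXR2 above 67.0% of genes with a median of 1.35. Among genes that also had 0.5 to 2 times the Total level of the mRNA, FXR1 was above 21.3% of 150 genes with a median of 2.65, FXR2 above 87.3% of 591 with a median of 0.77, and FMR1 above 68.3% of 896 with a median of 2.64. CYFIP1, CYFIP2 and NUFIP2 were above 13.3%, 31.1% and 64.6% of such genes. When the median ratio of SG to Total over genes above 1 TPM in both, 2.78, was set to 1, only FMR1 and NUFIP2 stayed above 2-fold and the log2 fold of FXR1 turned to -0.27.

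The siRNA libraries ask whether the levels depend on either G3BP. The targeted mRNAs were lower in their own libraries: G3BP1 was at 18.7 TPM in siCtrl and 6.0 in siG3BP1, and G3BP2 at 38.1 in siCtrl and 11.4 in siG3BP2. None of the 6 mRNAs passed 2-fold in either knockdown. The same rule called 1.12% of 12280 genes higher and 1.98% lower in siG3BP1, and 1.23% of 12229 genes higher and 2.89% lower in siG3BP2. CYFIP1 had the largest differences, from 9.60 TPM in siCtrl to 15.9 in siG3BP1 and 17.5 in siG3BP2, log2 folds of 0.67 and 0.81 that were higher than those of 97.2% and 98.0% of genes. FXR1 followed with 0.46 and 0.41. CYFIP2 differed by -0.33 in siG3BP2 and by 0.00 in siG3BP1. The remaining log2 folds were 0.16 and -0.21 for FMR1, -0.07 and -0.23 for FXR2 and -0.15 and -0.06 for NUFIP2. The 2 paralogs CYFIP1 and CYFIP2 thus had unlike values under the same siRNAs, with no replicate to show their error. Both comparisons use the single siCtrl library, so a low value there would raise both folds of a gene, and the median log2 folds over all genes were -0.08 and -0.12.

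Whether stress alone alters the levels was measured in the rRNA-depleted libraries. Their values per transcript are RPKM (reads scaled by transcript length and library size), from which read counts could be recovered, and a read on several transcripts of a gene was counted for each. NUFIP2 had the largest difference. Its representative transcript NUFIP2-201 had 913 reads without and 1556 reads with AS, 6.31 and 12.7 RPKM, a ratio of 2.01 with an exact 95% interval of 1.85 to 2.18 that covers counting error only. The short NUFIP2-202 went from 44 to 78 reads, with a ratio of 2.09 (1.43 to 3.10). Summed over both transcripts, NUFIP2 was at 12.2 and 25 RPKM, a log2 fold of 0.98 on RPKM + 1 that lay just below 2-fold and above 95.6% of genes.

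The other mRNAs differed less, against a median ratio of 1.2 over genes and 1.19 over transcripts. FXR1-202 had 703 and 791 reads and a ratio of 1.33 (1.2 to 1.47), and CYFIP2-222 had 387 and 462 reads and a ratio of 1.41 (1.23 to 1.61). The intervals of FMR1-205 (269 and 262 reads, 1.15, 0.964 to 1.37) and FXR2-201 (444 and 429 reads, 1.14, 0.995 to 1.30) included both 1 and the median over transcripts. CYFIP1-208 had only 31 and 29 reads, 0.342 and 0.377 RPKM, a ratio of 1.10 (0.641 to 1.89). No CYFIP1 transcript reached 1 RPKM in either library, so a change of CYFIP1 was not detectable at this depth unless large. Summed over its 14 transcripts, CYFIP1 was at 1.40 and 2.71 RPKM, a log2 fold of 0.63 above 85.4% of genes. That sum rests on few reads and counts a shared read for each transcript. None of the 6 genes passed 2-fold, where 4.08% of 16457 genes were higher and 1.28% lower. None of the 89 transcripts did on RPKM + 1, where 1.51% of 100705 were higher and 0.47% lower. With the added 1, the ratios of NUFIP2-201 and NUFIP2-202 given above became log2 folds of 0.90 and 0.95. With a smaller pseudocount of 0.1 RPKM, NUFIP2 passed the limit at a log2 fold of 1.03. Isoforms of one gene share reads and are not independent. Of the transcripts above 1 RPKM, 19 of the 20 from FXR1, 15 of 17 of CYFIP2, 13 of 17 of FMR1, 3 of 6 of FXR2 and 2 of 2 of NUFIP2 were higher in AS, as were 78.9% of all transcripts.

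**Figure D3:**
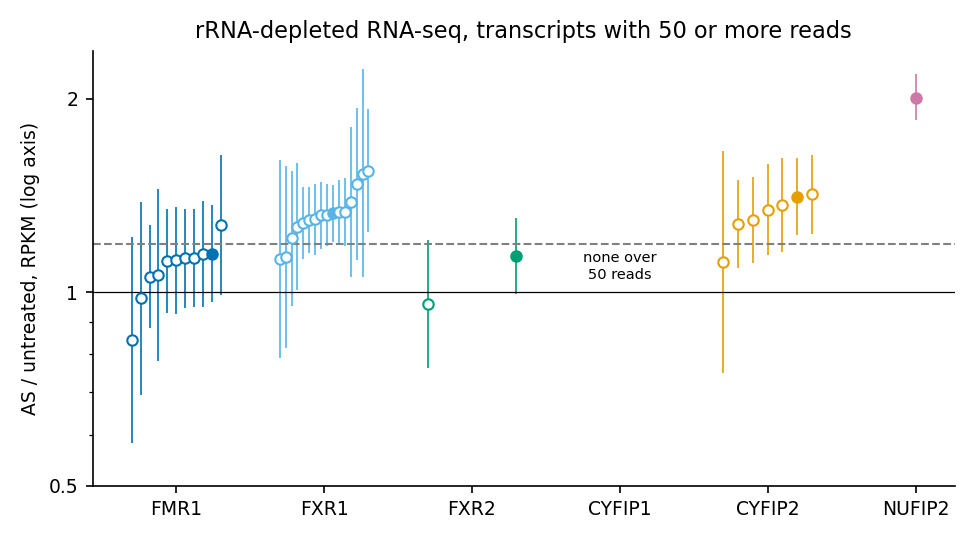
Ratio of RPKM in AS-treated to untreated cells (log axis) for transcripts with 50 or more recovered reads in both rRNA-depleted libraries, with exact 95% intervals for counting error. Filled points are the representative transcripts, the dashed line is the median over all transcripts (1.19) and the solid line is 1. NUFIP2-201 at 2.01 lies above the transcripts of the other genes, and no CYFIP1 transcript had 50 reads.

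The eCLIP table gives, per gene and library, log10 of a whole number plus 1, and what that number counts is not stated. On the scaled log10 values, FMR1 was at 3.04 and 2.96 in the 2 untreated G3BP1 libraries and at 2.93 and 2.89 in the 2 AS libraries. With the G3BP2 antibody it was at 3.0 and 3.15 in untreated and 2.99 and 2.97 in AS. For FMR1 both AS libraries were thus below both untreated libraries with each antibody, and the differences were -0.0925 ± 0.0652 (SE, n = 2 and 2; limma adjusted p = 0.996) for G3BP1 and -0.102 ± 0.0641 (limma adjusted p = 0.994) for G3BP2. CYFIP2 had the reverse order. It was at 3.31 and 3.39 in untreated and 3.41 and 3.43 in AS with G3BP1, and at 3.31 and 3.34 in untreated and 3.38 and 3.39 in AS with G3BP2. Both AS libraries of CYFIP2 lay above both untreated ones with each antibody, by 0.0678 ± 0.0492 (limma adjusted p = 0.996) and 0.0529 ± 0.0347 (limma adjusted p = 0.994), but in the values as deposited, without scaling, these differences were -0.045 and -0.02, where the medians over all genes were -0.115 and -0.075. Neither mRNA passed the test, and 0.0% of genes did in either comparison. The share of all genes whose AS and untreated libraries separated in this way was not counted, so these orders only describe the values. The 2 antibodies are also not independent repeats. Their gaps between duplicates correlated across 16476 genes by 0.544 in untreated cells and by 0.477 under AS.

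The remaining 4 mRNAs included those with the widest spread between duplicates. FXR1 was at 3.21 and 2.71 in the untreated G3BP1 libraries and 3.16 and 2.77 in the untreated G3BP2 libraries. Under AS its duplicates were closer, 3.17 and 3.06 with G3BP1 and 3.12 and 3.02 with G3BP2. With its sign kept, the first minus the second untreated duplicate of FXR1 exceeded that of 97.7% of 16476 genes with G3BP1. With G3BP2 it exceeded that of 97.3%. Genes with a wide gap in the other direction count among these, so the size of the gap was not ranked. Such gaps correlated between the antibodies, so the 2 gaps of FXR1 are not independent. CYFIP1 had the second duplicate higher in all 4 groups. It was at 1.72 and 1.92 in untreated and 1.78 and 2.21 in AS with G3BP1, and at 1.81 and 2.02 in untreated and 1.81 and 2.19 in AS with G3BP2. NUFIP2 had means of 2.42 ± 0.181 (SD, n = 2) in untreated and 2.40 ± 0.199 in AS with G3BP1, and 2.31 ± 0.0902 and 2.37 ± 0.211 with G3BP2. FXR2 had means of 2.21 ± 0.026 and 2.16 ± 0.0101 with G3BP1, and 2.18 ± 0.0614 and 2.18 ± 0.126 with G3BP2. For FXR2 with G3BP1 both AS libraries were below both untreated ones, and in the other comparisons of these 4 mRNAs the groups overlapped. How many of all genes separated like FXR2 was not counted.

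**Figure D4:**
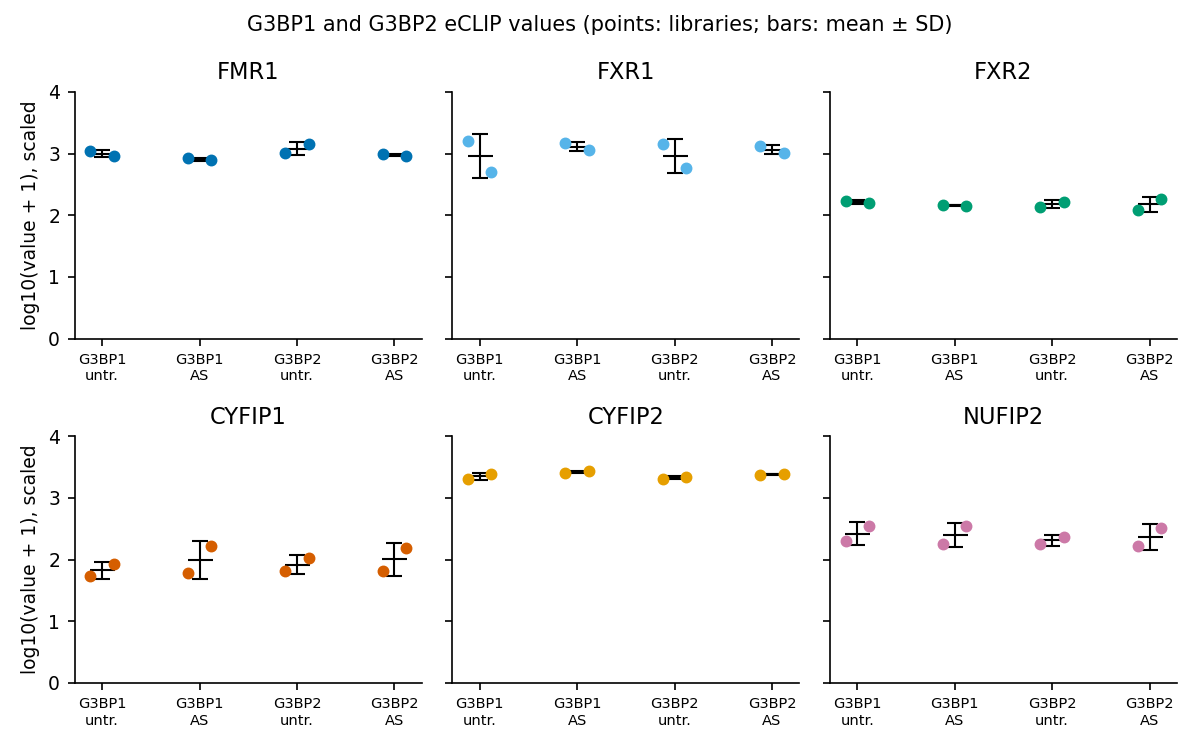
Scaled log10 eCLIP values of the 6 mRNAs for each antibody in untreated (untr.) and AS-treated cells, with points for the 2 libraries and bars for mean ± SD. In these scaled values FMR1 was lower and CYFIP2 higher in both AS libraries with each antibody, by 0.0529 to 0.102. CYFIP2 turned to -0.045 and -0.02 in the values as deposited. The share of all genes with such an order was not counted. The duplicates of FXR1 in untreated cells and of CYFIP1 under AS were apart by 0.386 to 0.503.

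No difference of any of the 6 mRNAs passed limma's test with Benjamini-Hochberg adjustment over all genes. Over the 6, the AS differences ranged from -0.0925 to 0.173 with G3BP1 and from -0.102 to 0.0979 with G3BP2. Their 95% intervals reached from -0.401 to 0.685 and from -0.357 to 0.532 on the log10 scale, which leaves room for changes of several fold in CYFIP1 and FXR1. The narrowest intervals were those of CYFIP2, 0.877-fold to 1.56-fold with G3BP1 and 0.919-fold to 1.39-fold with G3BP2. Between the antibodies, the G3BP2 values differed from the G3BP1 values by -0.112 to 0.0903 in untreated cells and by -0.047 to 0.0682 under AS, and the AS change differed between the antibodies by -0.0851 to 0.0807 (limma adjusted p = 0.998, 1 and 1). None of the 5 comparisons gave an unadjusted p under 0.05 for any of the 6. Over all genes limma called 0 in each, and at an unadjusted p under 0.05 it called 252 higher and 231 lower for AS with G3BP1, 330 and 307 for AS with G3BP2, 71 and 88 between the antibodies in untreated cells, 53 and 47 under AS, and 60 and 86 for the difference of the AS changes. When data of the G3BP1 comparison were simulated over 18888 genes, the test called 0 of 200 genes given a log10 change of 0.5, 80 of 200 given a change of 1 and 143 of 200 given a change of 2.

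The eCLIP value is not per length. Across genes it followed the summed genomic span of a gene's annotated transcripts, with Pearson's r from 0.932 to 0.937 in the 4 groups, where genes share each library and are not independent replicates. Each mRNA was therefore placed by its distance from the line fitted over all genes. CYFIP1 was far below it. In the untreated G3BP1 group its value was 0.0688 of that on the line, lower than that of all but 0.912% of 17754 genes, and in the other 3 groups 0.0855 to 0.103 of it, with 1.07% to 1.45% of genes below. With the genomic length of the gene, with the transcripts listed in the rRNA-depleted table or with the longest transcript in place of the summed span, CYFIP1 stayed below the line, at percentiles of 1.03 to 1.52, 0.778 to 1.22 and 7.39 to 11.9. CYFIP2, its paralog, was at 1.03 to 1.25 times the value on the line of the summed span and at 1.98 to 2.44 times that on the line of the gene length.

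**Figure D5:**
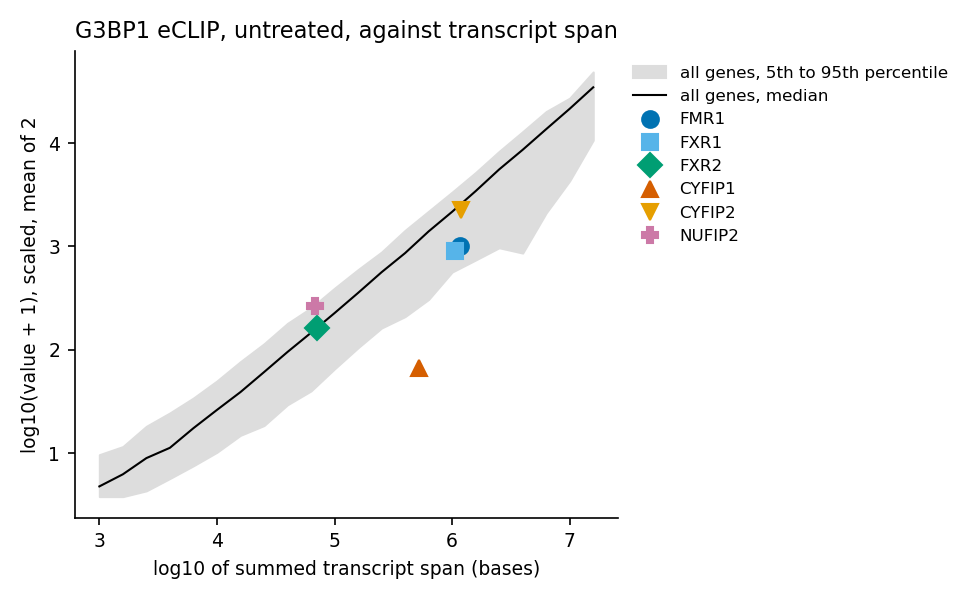
Mean scaled log10 eCLIP value of the 2 untreated G3BP1 libraries against log10 of the summed span of the annotated transcripts, with the median (line) and the 5th to 95th percentile (grey) of all genes in bins of 0.2 holding 20 or more genes. CYFIP1 lies below the grey band, and the other 5 mRNAs lie within or at its edge.

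CYFIP2 was at percentiles of 36.1 to 63.3 by the summed span, 79.4 to 86.4 by the gene length and 82.6 to 86.8 by the longest transcript. The places of the others also depended on how length was counted. FMR1 was below the line of the summed span, at percentiles of 5.79 to 12.1, and above the line of the genomic gene length, at 89.2 to 96.1. The annotation used here lists 35 FMR1 transcripts, of which 20 are in the rRNA-depleted libraries' table, and with those listed transcripts FMR1 was at 14.3 to 38.0. NUFIP2, with only 2 transcripts, was at 75.6 to 93.2 by the summed span, 33.4 to 44.6 by the gene length and 12.9 to 16.2 by the longest transcript. FXR1 was at 8.72 to 16.2 by the summed span and 47.0 to 64.8 by the gene length, and FXR2 at 30.5 to 42.1 and 40.6 to 47.3. With the listed transcripts FXR2 was at 74.6 to 86.6 and FXR1 at 7.55 to 15.6. No order of FMR1, FXR1, FXR2 and NUFIP2 in eCLIP per length is therefore given.

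CYFIP1 was also low in the rRNA-depleted libraries relative to the poly-A libraries. The ratio of the RPKM of its representative transcript in untreated cells to its TPM in siCtrl was 0.0356, lower than that of all but 6.07% of 11873 genes, whose median was 0.224. The same ratio, always with the representative transcript alone, was 0.176 for CYFIP2, 0.168 for FXR2, 0.397 for FXR1, 0.929 for FMR1 and 1.64 for NUFIP2, the last above 97.1% of genes. The 2 tables were normalized separately, and these ratios serve only to rank genes. Neighbours of CYFIP1 on chromosome 15, chosen after their values were seen, were also low in eCLIP, with NIPA1 at percentiles of 1.02 to 2.97, NIPA2 at 0.476 to 1.46 and TUBGCP5, placed in 3 groups, at 0.105 to 0.592 of the distance from the line. HERC2, farther away at chr15:28111040-28322179, was as low, at 0.610 to 0.918. The ratio of RPKM to TPM was 0.0883 for NIPA1, 0.0714 for NIPA2 and 0.0587 for TUBGCP5, above 16.6%, 11.8% and 10.2% of genes. That of TUBGCP5 rests on 5 reads in untreated cells. For HERC2 the ratio was 0.141, above 31.3% of genes. NIPA2 overlaps the end of CYFIP1 on the opposite strand. In the poly-A libraries NIPA2 was at 22.5 TPM in siCtrl, and CYFIP1 at 9.60.

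The wider pathway was read in lists of partners and targets. These lists were set beside all genes and not beside genes of the same mRNA length, with which the SG fold rose. Of 8 partners of the CYFIP proteins in the WAVE complex, 6 were SG-enriched and 1 depleted, where 62.9% and 9.45% of all genes were, with a median log2 fold of 2.98 against 1.51 over all genes. WASF3, a WAVE protein, was at 3.99 TPM in Total and 99.9 in SG, and the small subunit BRK1 was at 100.5 in Total and 28.9 in SG. None of the 8 passed 2-fold in a knockdown or in the rRNA-depleted pair. Over all genes, 1.12% were higher and 1.98% lower in siG3BP1, and 1.23% higher and 2.89% lower in siG3BP2. In the rRNA-depleted pair 4.08% were higher and 1.28% lower. Of 12 proteins that bind FMRP or act with it on mRNA, 7 were SG-enriched, where 62.9% of all genes were, and none depleted, with a median of 1.34 against 1.51 over all genes. The Argonaute protein AGO2 had the highest log2 fold of these, 5.66 (1.52 TPM in Total and 127 in SG). EIF4E, the cap-binding protein that CYFIP1 binds, was the only one of the 12 past 2-fold in the knockdowns, at 16.4 TPM in siCtrl, 7.31 in siG3BP1 and 4.19 in siG3BP2. Both calls set 1 library against the same siCtrl library. In the rRNA-depleted pair none of the 12 passed.

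Of 14 known target mRNAs of FMRP, 12 reached 1 TPM in SG or Total, and 11 of these were SG-enriched, where 62.9% of all genes were, and none depleted, with a median log2 fold of 2.66 against 1.51. Without a match for mRNA length, these values do not show whether targets differ from other mRNAs as long. MAP1B, which encodes a microtubule-associated protein, was at 5.55 TPM in Total and 989 in SG. In siG3BP2, BSN, which encodes a presynaptic scaffold protein, was lower, at 7.45 TPM in siCtrl and 3.12 in siG3BP2, where 2.89% of all genes were lower. None of 12 targets above the minimum passed in siG3BP1, where 1.12% of all genes were higher and 1.98% lower. Under AS, ARC, an immediate early gene, was at 0.332 RPKM in untreated and 3.0 in AS-treated cells. It was the only one of 10 targets above 1 RPKM past 2-fold, where 4.08% of all genes were higher. The 6 mRNAs themselves had a median log2 fold of 1.88 in SG.

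Over the 5 poly-A libraries, the gene with the most similar profile was found for each mRNA among 10746 genes above 10 TPM in any library, by the root mean square difference of centred log2(TPM + 1). It was STIL for FMR1 (0.0544), LSM2 for FXR1 (0.0476), EXT2 for FXR2 (0.0348), TANGO2 for CYFIP1 (0.0702), ZFAND5 for CYFIP2 (0.0301) and HDAC4 for NUFIP2 (0.0508). STIL, EXT2, TANGO2 and HDAC4 were above 10 TPM in SG only. HDAC4 was at 0.428 TPM in siCtrl, 0.350 in siG3BP1, 0.396 in siG3BP2, 0.244 in Total and 22.7 in SG. At such low levels the added 1 hides differences, so its match to NUFIP2 rests on SG. CYFIP1 had the largest distance to its nearest gene. TANGO2 was at 4.64 TPM in siCtrl, 7.90 in siG3BP1, 9.64 in siG3BP2, 3.11 in Total and 10.8 in SG.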

How the data were processed

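The members and gene lists were chosen with earlier results of these data known. Poly-A RNA-seq was deposited as TPM per protein-coding gene (HISAT2 2.1.0, StringTie and GENCODE annotation, per the methods of the authors), with reads aligned to GRCh38.p13. The rRNA-depleted table was deposited with a header of TPM, but value times transcript length was a whole multiple of 1 step for 100.0% (untreated) and 99.999% (AS) of transcripts within 0.02 reads, so the authors' values were treated as RPKM, with bases of 13291959 and 11281587 reads. Lengths came from GENCODE release 44. eCLIP was deposited by the authors as log10 of a whole number plus 1, which of peak calling, deduplication and input normalization it includes not being stated. For eCLIP each library was scaled to the median total, genes above 0 in at least 2 libraries were kept, and limma 3.58.1 (R 4.3.3) with an intensity trend was fitted without a replicate block (two-sided, Benjamini-Hochberg, adjusted p under 0.05). Single libraries were compared by log2 of value + 1, with no test. A called gene passed 2-fold with the higher library above 1. The named genes were the 6 members, the highest and lowest of each list, and the gene of most similar profile. Neighbours of CYFIP1, HERC2 and list genes past 2-fold were added after their values were seen. Depth of the TPM libraries is unknown. The limma script was tested on simulated data. Figures and tables used Python 3.11.15. Other matches of the palindrome in the transcripts are not reported here.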

Additional observations from a re-analysis of the deposited data

How the results depend on the processing

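No difference of the 6 mRNAs in eCLIP passed limma's test under any of 348 combinations of comparison, mRNA and alternative (smallest adjusted p 0.547), and 61 of them had another sign than the value reported. With the values as deposited, limma called 2 genes for AS with G3BP2, and the AS difference was -0.045 and -0.02 for CYFIP2 (G3BP1 and G3BP2) and -0.015 for NUFIP2 (G3BP2), while the lowest difference between the antibodies became 0.005 in untreated cells and 0.11 under AS, where the medians over all genes were 0.12 and 0.155. The replicate number is shared by all groups but only 2 pairs exist per comparison, so it was not used as a block. Deviations of same-numbered libraries correlated by 0.544 between the antibodies in untreated cells and by 0.477 under AS. Between treatments they correlated by 0.11 to 0.177. With the replicate block 0 genes passed in all 5 comparisons, and the genes (higher and lower) with an unadjusted p under 0.05 were 334 and 299 for AS with G3BP1, 363 and 314 for AS with G3BP2, 479 and 450 between the antibodies in untreated cells, 123 and 173 under AS, and 94 and 119 for the difference of the AS changes. The block on values as deposited, added after seeing the data, left the differences at -0.045, -0.02, -0.015, 0.005 and 0.11. A block cannot alter a difference here, because every group holds both replicate numbers. The differences also stay the same without the filter and with all 8 libraries in the fit. On the scaled values these alternatives therefore could not count among the 61 changes of sign.

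Leaving out 1 eCLIP library in turn gave 0 to 3 genes called for AS with G3BP1 (3 without the second untreated G3BP1 library) and 0 to 24 for the difference of the AS changes (24 without the first AS library of G3BP1), with no member among them. These fits assume that the lone library left in a group varies like the others. The AS difference of FMR1 ranged from -0.134 to -0.0511 with G3BP1 and from -0.177 to -0.0277 with G3BP2 (nearest 0 without the first and the second untreated library). That of CYFIP2 ranged from 0.029 to 0.107 with G3BP1 and from 0.0382 to 0.0675 with G3BP2. The AS difference with G3BP1 ranged from -0.0986 to 0.405 for FXR1, -0.0453 to 0.391 for CYFIP1 and -0.164 to 0.118 for NUFIP2. With G3BP2 it ranged from -0.0976 to 0.293 for FXR1, -0.0914 to 0.0861 for FXR2, -0.106 to 0.28 for CYFIP1 and -0.0918 to 0.207 for NUFIP2. The highest difference of the AS changes among the 6 ranged from -0.000192 to 0.23.

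In SG, 2 of the 6 mRNAs, FMR1 and NUFIP2, passed a 4-fold threshold, and 2 passed 2-fold with the median ratio set to 1, where FXR1 was at -0.269. In the rRNA-depleted pair, 1 mRNA, NUFIP2, passed with a pseudocount of 0.1. No mRNA passed in the knockdowns under the 4 alternatives tried. By the longest transcript the mean distance from the eCLIP line was 0.322 for FMR1, 0.14 for FXR1 and -0.669 for NUFIP2. By the genomic gene length, added after seeing the data like the listed transcripts, it was 0.527, 0.0537 and -0.0796, and by the listed transcripts it was 0.148 for FXR2. The distance of CYFIP1 was -1.05 by the summed span and -0.837 to -1.09 by the alternatives. The causes of these shifts were not tested. The TPM tables have no replicates and no known depth, and eCLIP has 2 libraries a group.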
